A study of Mus musculus with 27 samples.

Results

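A set of 8 genes was taken by symbol from a table of 55487 mouse genes, of which 35145 had at least 1 count. They encode the nuclear receptors for thyroid hormone (Thra, Thrb), corticosteroids (Nr3c1, Nr3c2) and estrogen (Esr1, Esr2) and the deiodinases that activate or inactivate thyroid hormone in tissue (Dio2, Dio3). All 8 symbols matched a single identifier, and the genes were chosen with earlier results of these data known. Gene expression was measured by RNA sequencing of mouse ventricles in 27 libraries. Controls (Ctl) were collected at postnatal day 1 (4 libraries), at postnatal day 7 (3 libraries) and at postnatal day 60 with 7 days (4 libraries) or 14 days (3 libraries) entered as time after knockout. Ventricles with MBNL1 gain of function (Tg, 4 libraries) were collected at postnatal day 7. Ventricles with MBNL1 loss of function (KO) were collected at postnatal day 60, at 7 days (5 libraries) and at 14 days (4 libraries) after knockout. MBNL1 is an RNA-binding protein that acts on splicing and RNA stability. The driver of the transgene, the means of knockout, any agent given to the controls and the number of animals are not given in the sources used here. Separate samples of a group may therefore share an animal, and a p-value reflects how far the samples varied, technical variation included.

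Thyroid hormone enters heart cells through membrane transporters and acts on nuclear receptors that sit on DNA with retinoid X receptors. The type 2 deiodinase (Dio2) makes active triiodothyronine from thyroxine, and the type 3 deiodinase (Dio3), which is abundant in fetal tissue, inactivates both hormones. In the heart the hormone raises the fast myosin heavy chain, the calcium pump of the sarcoplasmic reticulum and several potassium channels, and it rises in blood after birth. The glucocorticoid receptor (Nr3c1) and the mineralocorticoid receptor (Nr3c2) both bind corticosteroids, and estrogen receptors α and β are encoded by Esr1 and Esr2.

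Library totals ran from 21929347 to 25675115 counts. Levels are CPM, each count set against the scaled library total, after scaling by trimmed mean of M-values (TMM), and a count of 0 allows up to 3 counts, or 0.0956 to 0.187 CPM. Mbnl1, read first as a check of the labels, held 2927 to 4079 CPM in the 4 Tg libraries against 96.9 to 104 CPM in the controls of postnatal day 7. The range at 7 days was 103 to 219 CPM under the KO label and 145 to 152 CPM in controls, so the gene total did not separate them, and at 14 days it was 117 to 139 CPM against 152 to 169 CPM. They are called the libraries labelled KO for that reason. Libraries labelled KO and their controls also differed in the counts from mitochondrially encoded genes, at 14.7 to 21.6% against 26.0 to 29.6%.

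Differences were tested with edgeR's quasi-likelihood test with Benjamini-Hochberg adjustment over all genes tested, with 0.05 as the threshold on the adjusted p for a call. Of 7 members tested at 7 days, 3 were called higher in the libraries labelled KO (Dio2, Dio3, Esr1) and 2 lower (Thrb, Nr3c2), while 26.4% of the 15167 genes tested were called higher and 24.3% lower. The same 3 and 2 members were called at 14 days, where 21.8% of 14976 genes were called higher and 22.4% lower. At both times Dio3 passed the low-count filter only through the libraries labelled KO, so its calls add nothing to those counts and are not read as support. The same holds for the call of Esr1 at 7 days. No member was called by edgeR for a response that differed between 14 and 7 days. In that comparison 0% of 15951 genes were called by edgeR, 1662 had an unadjusted p under 0.05, limma-voom called 0 and DESeq2 148. In Tg against control, 1 of 6 members tested was called higher (Nr3c1) and 3 lower (Thra, Thrb, Nr3c2), with 14.9% of 15893 genes called higher and 15.8% lower. From postnatal day 1 to 7 in controls, 3 of 6 were called higher (Thrb, Nr3c1, Nr3c2) and 0 lower, with 12.3% of 16388 genes called higher and 11.2% lower. From postnatal day 7 to 60, 3 of 6 were called higher (Thrb, Nr3c2, Esr1) and 3 lower (Thra, Dio2, Nr3c1), with 33.3% of 16388 genes called higher and 36% lower. There Esr1 passed the low-count filter only through the controls of day 60, and its call is not read as support.

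**Figure D1:**
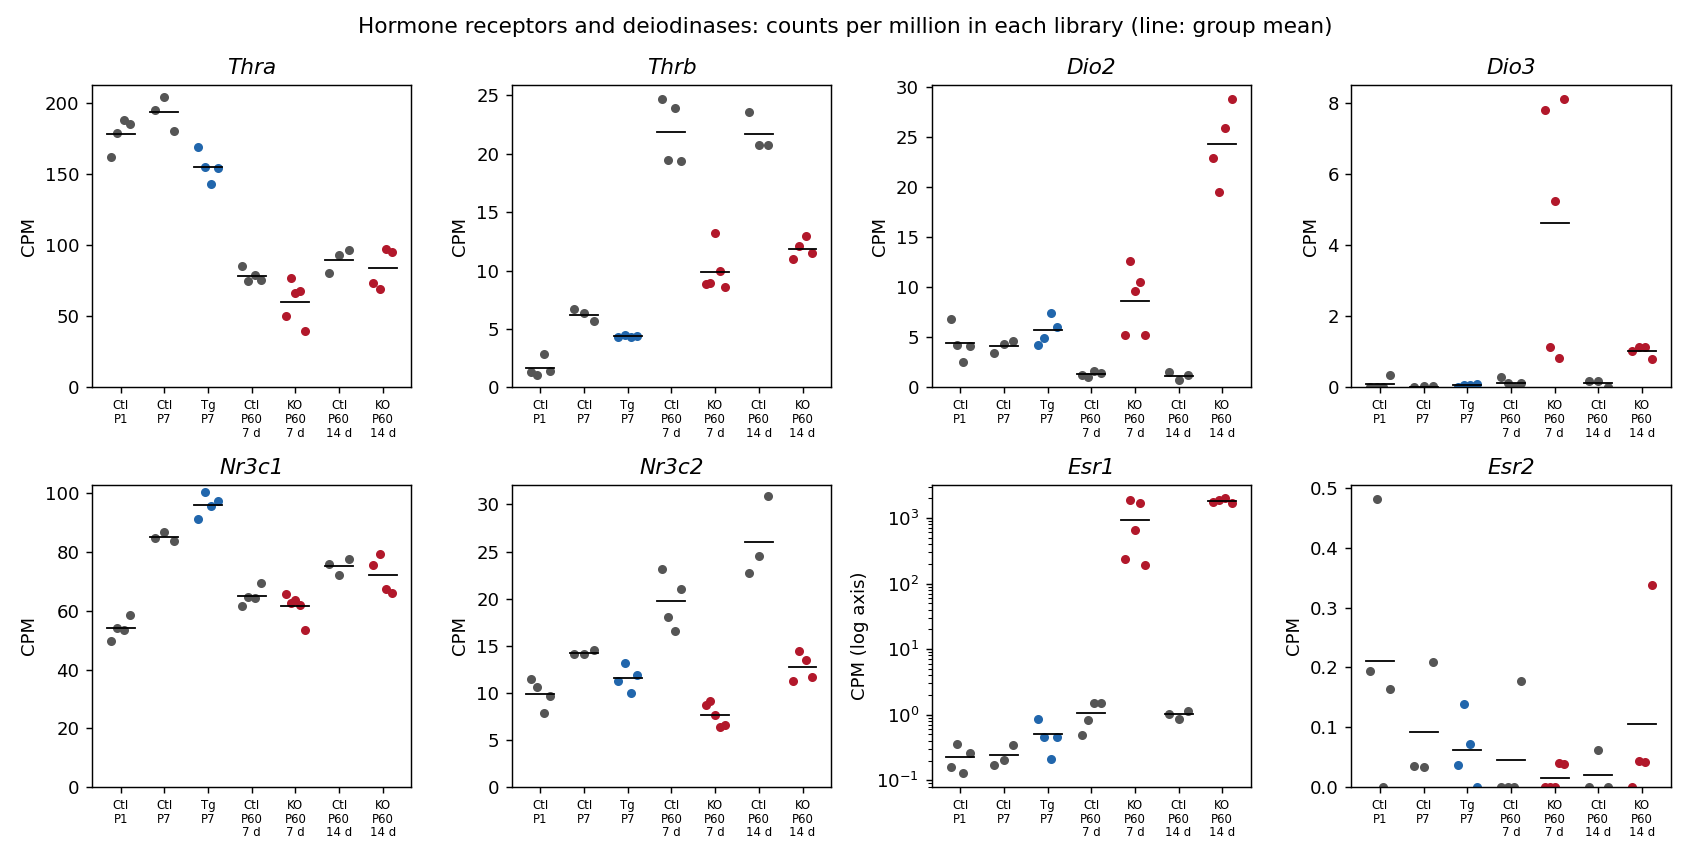
CPM of the 8 genes (vertical axes, logarithmic for Esr1) in each of the 27 libraries, by group (horizontal axis), with a line at the group mean. Thrb and Nr3c2 sit lower and Dio2, Dio3 and Esr1 higher in every library labelled KO than in the controls of the same time, and Thra is highest at postnatal days 1 and 7.

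**Figure D2:**
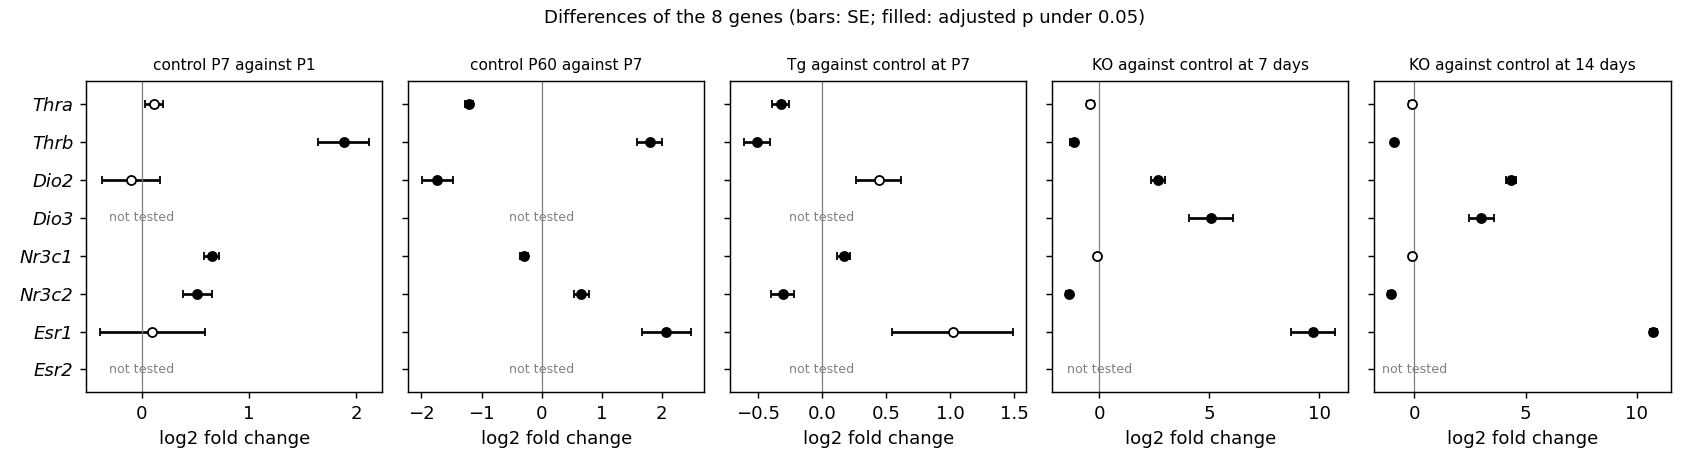
Log2 fold change of each gene (horizontal axes, which differ in range) in 5 comparisons, with bars of 1 SE and filled points at an adjusted p under 0.05 (edgeR). In the libraries labelled KO, Thra (-0.40 and -0.13) and Nr3c1 (-0.09 at both times) were not called and turn from negative to positive when libraries are scaled by total counts. Dio3 entered those tests only through the libraries labelled KO.

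Thra (ENSMUSG00000058756, chromosome 11, 98740638 to 98769006, plus strand, GRCm38) encodes the α receptors, the main thyroid hormone receptors of cardiomyocytes and also the source of a splice form that does not bind the hormone. It was the most abundant of the 8 genes per kb of exon in every control group. In controls its level was 38.6 ± 2.53 CPM per kb (SD, n = 4) at postnatal day 1 and 41.8 ± 2.63 (n = 3) at day 7. At postnatal day 60 the controls held 17.0 ± 1.03 CPM per kb (n = 4) at 7 days and 19.5 ± 1.83 (n = 3) at 14 days. The level fell from postnatal day 7 to 60 by 1.21 on the log2 scale (SE 0.07, adjusted p = 2.36e-09; 1.81 with total count scaling), while days 1 and 7 overlapped (0.11 ± 0.08, adjusted p = 0.364).

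The Tg libraries held 169, 155, 143 and 154 CPM of Thra and their controls 195, 204 and 180.1 CPM. Every Tg library lay below every control, and the difference was called (log2 fold change -0.32 ± 0.06, adjusted p = 0.00192). Thra under the KO label at 7 days was at 50.2, 77.0, 66.2, 68.0 and 39.7 CPM, set against 85.0, 74.4, 79.2 and 75.6 CPM in controls. Libraries 1 and 5 were lowest and library 2 lay within the control range. The difference was not called (-0.40 ± 0.17, adjusted p = 0.0658, 0.0143 to 0.901 over 18 alternatives) was 0.03 with total count scaling and was -0.17 without libraries 1 and 5. At 14 days the values were 73.6, 69.4, 97.1 and 95.2 CPM against 80.2, 92.8 and 96.2 CPM, which overlap (-0.13 ± 0.14, adjusted p = 0.476). The last exon of Thra shares 263 bases with Nr1d1, a circadian repressor on the opposite strand, and without a stated strand setting their reads cannot be told apart there. Nr1d1 ran from 27.1 to 163 CPM over the 16 libraries of postnatal day 60, and its part in the Thra values was not tested.

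Thrb (ENSMUSG00000021779, chromosome 14, 17660261 to 18038090, plus strand), which encodes the β receptors, rose at each step of control development. Day 1 libraries held 1.33, 1.09, 2.87 and 1.41 CPM and day 7 libraries 6.68, 6.33 and 5.65 CPM. At postnatal day 60 controls held 24.7, 19.5, 23.9 and 19.3 CPM at 7 days and 23.6, 20.8 and 20.8 CPM at 14 days. The ages did not overlap, and the steps were 1.88 ± 0.24 (adjusted p = 6.01e-05) and 1.80 ± 0.21 (adjusted p = 2.07e-06) on the log2 scale, the second 1.20 with total count scaling.

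Thrb was lower in the libraries labelled KO. At 7 days they held 8.89, 8.91, 13.2, 9.93 and 8.60 CPM, and at 14 days 10.96, 12.1, 12.95 and 11.5 CPM. All 9 lay below all 7 controls of that age and above the postnatal day 7 controls. Thrb differed by -1.16 ± 0.15 on the log2 scale at 7 days (adjusted p = 0.000119) and -0.90 ± 0.10 at 14 days (adjusted p = 7.61e-05). It was called in each of the 18 and 15 alternatives and was smallest with total count scaling, at -0.73 and -0.52. The Tg libraries held 4.35, 4.49, 4.33 and 4.39 CPM, below the 3 controls of postnatal day 7 and above those of day 1 (-0.51 ± 0.10, adjusted p = 0.00234). With all 27 libraries in a single fit the Tg difference was not called for Thra (adjusted p = 0.246) or Thrb (adjusted p = 0.143).

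The share of Thrb in the summed counts of both receptor genes does not depend on scaling between libraries. It was 0.921 ± 0.399% (SD, n = 4) at postnatal day 1 and 3.12 ± 0.168% (n = 3) at day 7. At day 60 the controls held 21.7 ± 1.37% (n = 4) and 19.6 ± 2.72% (n = 3). The libraries labelled KO held 10.4 to 17.8% at 7 days and 10.8 to 14.8% at 14 days, and the lowest of their controls held 20.4% and 17.8%. Within the libraries labelled KO at 7 days the share was lowest in library 2. In Tg it was 2.51 to 2.95%, against 3.01 to 3.31% in controls. These shares are descriptions, given without a test.

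**Figure D3:**
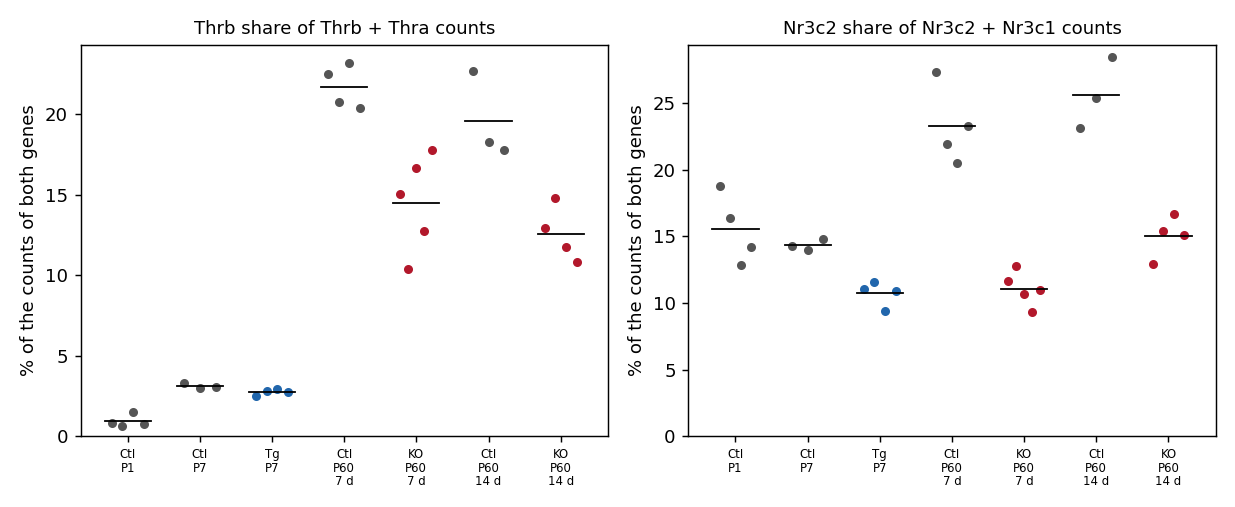
Share of Thrb in the counts of Thrb and Thra (left) and of Nr3c2 in the counts of Nr3c2 and Nr3c1 (right), in percent, by library and group, with a line at the group mean. Both shares are lower in the libraries labelled KO than in the controls of the same time, and the Thrb share stays above the values of postnatal days 1 and 7.

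Dio2 (ENSMUSG00000007682, chromosome 12, 90724552 to 90738438, minus strand) and Dio3 (ENSMUSG00000075707, chromosome 12, 110279068 to 110281097, plus strand) act on the same hormones in opposite directions, and both were higher in the libraries labelled KO. Sequence near their starts is shown because both genes were higher in those libraries while the stretches before their starts differ in composition. The bases come from RefSeq promoter windows on GRCm38.p6, which matched 6 of the 8 genes. The Dio2 stretch is the 250 bases before the RefSeq start (chr12:90739039-90739288, minus strand), and the Dio3 stretch is the 30 bases around its TATAAA (chr12:110279187-110279216, plus strand), which lies within the GENCODE span of the gene. Capitals mark TGACGTCA, the cAMP response element, and TATAAA, the TATA box.
Dio2: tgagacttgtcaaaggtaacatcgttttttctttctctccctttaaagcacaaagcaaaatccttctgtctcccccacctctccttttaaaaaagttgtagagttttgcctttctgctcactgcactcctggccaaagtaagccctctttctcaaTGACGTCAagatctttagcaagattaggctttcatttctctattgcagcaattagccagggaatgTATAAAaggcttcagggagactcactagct
Dio3: tcaagctttgacTATAAAttgagctcccag

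Searched on both strands, TGACGTCA was found in 1.55% and TATAAA in 12.4% of 32851 such windows of 250 bases. The Dio2 window held 1 of each, with 41.6% G and C and 2 CG dinucleotides. The Dio3 window held TATAAA, no TGACGTCA, 69.6% G and C and 21 CG dinucleotides, where the median window has 52.4% and 6. Neither held AGGTCA, the nuclear receptor motif, which was in 14% of windows, or AGAACA, the corticosteroid receptor motif, which was in 16.1%. These motifs do not overlap one another in either window, and a match is a description of the letters only.

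Dio2 was present at low levels in neonatal controls and lower at postnatal day 60. Day 1 libraries held 6.87, 4.27, 2.58 and 4.14 CPM, and day 7 libraries 3.48, 4.37 and 4.67 CPM. All 7 controls of day 60 lay between 0.748 and 1.66 CPM, below every neonatal library. Dio2 fell by 1.74 on the log2 scale from postnatal day 7 to 60 (SE 0.26, adjusted p = 3.25e-05; 2.34 with total count scaling), and its value from day 1 to 7 was -0.10 ± 0.27 (adjusted p = 0.832).

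Under the KO label, Dio2 at 7 days was at 5.24, 12.7, 9.68, 10.5 and 5.20 CPM, set against 1.21, 0.993, 1.66 and 1.48 CPM. At 14 days it was at 23.0, 19.6, 25.9 and 28.8 CPM, set against 1.53, 0.748 and 1.25 CPM. All 9 lay above their controls, and all 4 of 14 days lay above all 5 of 7 days. Dio2 differed by 2.67 ± 0.32 on the log2 scale at 7 days (adjusted p = 8.86e-05) and 4.33 ± 0.23 at 14 days (adjusted p = 7.72e-07). The larger value at 14 days was not called as a difference between the times by edgeR (1.68 ± 0.45, adjusted p = 0.209), whereas DESeq2 called it (1.67, adjusted p = 0.0312), and the adjusted p ran from 0.0312 to 0.435 over 25 alternatives. Dio2 shares 100 exon bases with the noncoding RNA Gm26512, and reads there cannot be assigned to either gene alone. In Tg the 4 libraries held 4.28, 4.95, 7.45 and 6.09 CPM, which overlapped the controls (0.44 ± 0.18, adjusted p = 0.075).

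Dio3, an imprinted single-exon gene, was near the limit of counting outside the libraries labelled KO. The 7 controls of postnatal day 60 held 0 to 5 counts, the 7 libraries of postnatal day 7 held 0 to 3, and day 1 libraries held 0, 0, 0 and 11. Under the KO label, the 7-day libraries held 186, 29, 129, 20 and 207 counts (7.80, 1.13, 5.25, 0.817 and 8.09 CPM). At 14 days they held 22, 26, 27 and 19 counts (1.03, 1.15, 1.13 and 0.804 CPM). Libraries 1, 3 and 5 of 7 days stood above the other 6, and all 9 lay above every control.

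Over pooled counts, Dio3 was 35.6 times its controls at 7 days (95% interval 18.6 to 78.2, counting error only) and 8.66 times at 14 days (3.83 to 24.2). Since Dio3 entered the fits only through the libraries in which it was high, its fitted log2 fold changes of 5.08 ± 0.98 and 3.01 ± 0.55 are given as a description, without their p-values. At 7 days the fitted value was 5.84 without control library 1 and 4.14 without libraries 1 and 5 labelled KO, and at 14 days it was 2.39 without control library 7. The difference between the times was not called (-2.04 ± 1.73, adjusted p = 0.707).

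Neighbours of the Dio3 locus were read by gene. Dio3os, a noncoding RNA on the strand opposite Dio3, held 36 to 68 counts in the libraries labelled KO at 7 days against 1 to 5 in controls, and 23 to 57 against 1 to 10 at 14 days. It too passed the filter only through the libraries labelled KO, and its test is not used. It was at 1.51, 1.83, 2.77, 1.55 and 2.15 CPM at 7 days, and libraries 2 and 4, low in Dio3, lay within the range of the other 3. The maternally expressed RNAs Meg3 (0.95 ± 0.24, adjusted p = 0.0068) and Rian (1.18 ± 0.20, adjusted p = 0.000734) were also called higher at 7 days, and both at 14 days (0.51 ± 0.18, adjusted p = 0.0449, and 0.61 ± 0.15, adjusted p = 0.00658). Mirg and Rtl1 of the same domain were not called higher. Mirg held 0.687 ± 0.279 CPM against 0.428 ± 0.232 CPM at 7 days (SD, n = 5 and 4) and 0.488 ± 0.140 CPM against 0.497 ± 0.155 CPM at 14 days (n = 4 and 3), and Rtl1, too low to be tested, lay between 0.0603 and 1.003 CPM in all 16 libraries. Dlk1, the paternally expressed growth regulator of the same domain, stayed between 0.0391 and 0.491 CPM in all 16 libraries of postnatal day 60 and was not tested there, and it held 111 to 247 CPM at postnatal day 1.

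Nr3c1 (ENSMUSG00000024431, chromosome 18, 39410545 to 39519421, minus strand), the glucocorticoid receptor, was not separated between the libraries labelled KO and their controls. At 7 days the values were 65.8, 62.6, 63.8, 61.9 and 53.6 CPM against 61.6, 64.6, 64.3 and 69.3 CPM. At 14 days they were 75.7, 79.4, 67.4 and 66.0 CPM against 75.8, 72.1 and 77.7 CPM. The groups overlapped at both times. The log2 fold change was -0.09 ± 0.08 (adjusted p = 0.358) and -0.09 ± 0.09 (adjusted p = 0.439). With total count scaling, which shifts the median of all genes by 0.45 and 0.39, Nr3c1 was called higher, at 0.33 (adjusted p = 0.00583) and 0.28 (adjusted p = 0.0282).

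In controls Nr3c1 rose from 54.1 ± 3.63 CPM (SD, n = 4) at postnatal day 1 to 85.2 ± 1.56 CPM (n = 3) at day 7 (0.65 ± 0.07, adjusted p = 1.24e-05). It then fell by 0.29 to postnatal day 60 (SE 0.06, adjusted p = 0.000594), where the groups held 64.9 ± 3.22 CPM (n = 4) and 75.2 ± 2.88 CPM (n = 3), and by 0.89 with total count scaling. The Tg libraries held 91.2, 100.4, 95.6 and 97.3 CPM against 84.9, 86.8 and 83.7 CPM. They did not overlap, and the difference was called (0.17 ± 0.05, adjusted p = 0.0231). That call was lost in 4 of the 7 fits that left out 1 library, without Tg library 2 or 4 or control library 1 or 3 (0.15 to 0.17, adjusted p = 0.0521 to 0.0696), and in the fit that took in all 27 libraries (adjusted p = 0.237).

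Nr3c2 (ENSMUSG00000031618, chromosome 8, 76899442 to 77245012, plus strand), the mineralocorticoid receptor, was lower in the libraries labelled KO at both times. It shares 247 exon bases with Gm10649 on the opposite strand, where reads of both cannot be told apart. The values at 7 days were 8.68, 9.14, 7.60, 6.37 and 6.61 CPM, set against 23.2, 18.1, 16.6 and 21.1 CPM. Those at 14 days were 11.2, 14.4, 13.5 and 11.7 CPM, set against 22.8, 24.5 and 30.9 CPM. No library labelled KO reached its controls. The log2 fold change was -1.38 ± 0.15 (adjusted p = 4.01e-05) and -1.07 ± 0.13 (adjusted p = 0.000129), and it was called in each of the 18 and 15 alternatives, with -0.95 and -0.70 under total count scaling. The time difference was not called (0.33 ± 0.21).

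In controls Nr3c2 held 11.5, 10.6, 7.90 and 9.71 CPM at postnatal day 1 and 14.1, 14.1 and 14.5 CPM at day 7. The rise of 0.52 ± 0.14 (adjusted p = 0.0146) was not called without control library 3 of postnatal day 7 (0.50, adjusted p = 0.0541) or without day 1 libraries 3 and 4 (0.36, adjusted p = 0.0636). From day 7 to day 60 it rose by 0.66 ± 0.13 (adjusted p = 0.000327), but by 0.06 (adjusted p = 0.68) with total count scaling, which shifts the median of all genes by -0.65 in that comparison. In Tg the values were 11.3, 13.2, 9.95 and 11.9 CPM, below all 3 controls (-0.30 ± 0.09, adjusted p = 0.0219). That call was lost without Tg library 1 or 3 or control library 2 or 3 (-0.31 to -0.24, adjusted p = 0.0517 to 0.0651), and in the fit that took in all 27 libraries (adjusted p = 0.27).

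The share of Nr3c2 in the counts of both corticosteroid receptor genes was 15.5 ± 2.59% (SD, n = 4) at postnatal day 1 and 14.3 ± 0.391% (n = 3) at day 7. Day 60 controls held 23.3 ± 2.94% (n = 4) and 25.6 ± 2.67% (n = 3). The libraries labelled KO held 9.34 to 12.7% at 7 days and 12.9 to 16.7% at 14 days, below the lowest of their controls (20.5% and 23.1%). The Tg libraries held 9.43 to 11.6% against 14.0 to 14.8% in controls, so the groups were separate in all 3 of these comparisons.

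Esr1 (ENSMUSG00000019768, chromosome 10, 4611593 to 5005614, plus strand), estrogen receptor α, was set beside the other receptors because inducible Cre constructs carry the hormone-binding part of an estrogen receptor, and reads from such a part can count towards the gene. At 14 days the libraries labelled KO held 133 ± 10.5 CPM per kb of exon (SD, n = 4), above the 18.2 ± 3.11 CPM per kb of Thra in the same libraries. In the 18 other libraries, those of Tg and all controls, Esr1 lay between 0.127 and 1.49 CPM. Pooled counts gave 870 times the controls at 7 days (95% interval 694 to 1106) and 1772 times at 14 days (1351 to 2372), where Dio2 gave 6.51 (5.26 to 8.13) and 20.6 (16.0 to 27.1). These intervals cover counting error only and not the spread between libraries. At 7 days Esr1 ran from 193 to 1905 CPM in the libraries labelled KO. Fitted log2 fold changes were 9.73 ± 0.99 at 7 days and 10.75 ± 0.16 at 14 days (adjusted p = 1.36e-10 at 14 days). At 7 days Esr1 passed the low-count filter only through the libraries labelled KO, so that value is given without its p-value. None of the 4 other receptor genes tested was called higher in these comparisons under TMM scaling, and Esr2 was too low to be tested.

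Chromosomal neighbours of Esr1 did not share its size of change. Of 16 protein-coding genes within 1.5 Mb, 12 were tested, and their log2 fold changes ran from -1.55 (Rmnd1) to 1.34 (Fbxo5) at 7 days and from -1.47 to 1.22 at 14 days. The nearest tested genes on either side, Armt1 and Syne1, had -0.27 ± 0.14 and -0.43 ± 0.12 at 7 days. Gene totals cannot separate a transcript of the chromosomal gene from a construct that carries part of it, and the source of the Esr1 counts was not tested. No library of postnatal day 60 held the KO label without high Esr1 or the Ctl label with it, so the knockout and the Esr1 counts cannot be told apart.

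In controls Esr1 held 0.243 ± 0.0930 CPM (SD, n = 3) at postnatal day 7. At day 60 the controls held 1.07 ± 0.502 CPM (n = 4) and 1.02 ± 0.138 CPM (n = 3). These are 5 to 10 counts against 8 to 27. Esr1 passed the low-count filter in this comparison only through the controls of day 60. Its fitted log2 fold change of 2.08 ± 0.41 (1.48 with total count scaling) is therefore a description, given without its p-value. When the fit took in all 27 libraries, the edgeR adjusted p was 0.0547, above the threshold. The Tg libraries held 0.870, 0.453, 0.215 and 0.460 CPM against 0.174, 0.206 and 0.349 CPM, which overlap (1.02 ± 0.47, adjusted p = 0.12). Esr2 (ENSMUSG00000021055, chromosome 12, 76120419 to 76177259, minus strand), estrogen receptor β, passed the low-count filter in no comparison. Its highest values were 15 counts in a day 1 library and 8 counts in library 9 labelled KO at 14 days, and 9 of the 16 libraries of postnatal day 60 held 0.

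**Figure D4:**
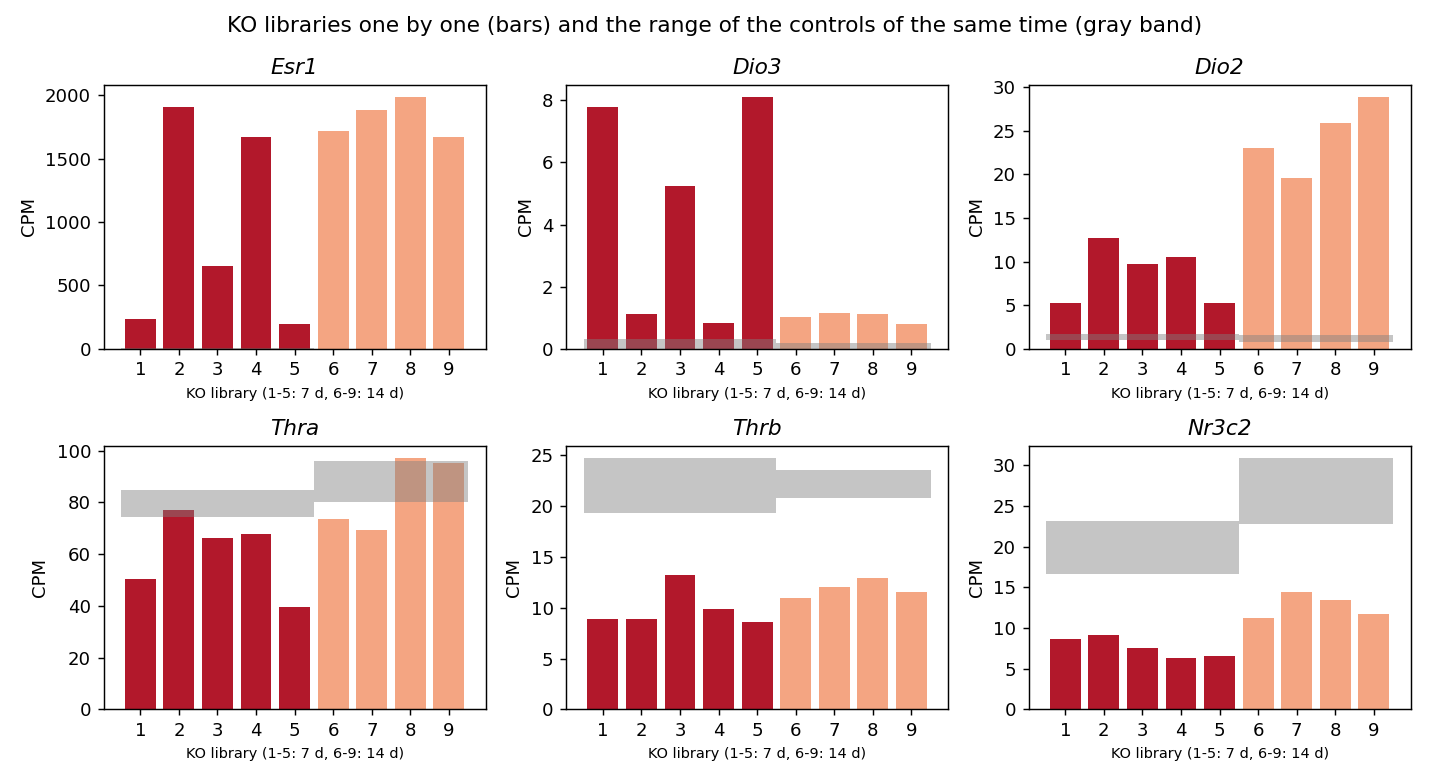
CPM (vertical axes) of 6 genes in each of the 9 libraries labelled KO (bars, darker for 7 days), with the range of the controls of the same time as a gray band. Libraries 1, 3 and 5 hold the most Dio3 and the least Esr1, and Thrb and Nr3c2 lie below the band in all 9.

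The 5 libraries labelled KO at 7 days were uneven, and the members split by how far they followed that. Esr1 held 234, 1905, 651, 1671 and 193 CPM, so that libraries 1, 5 and 3 were low, and these were the libraries with 7.80, 8.09 and 5.25 CPM of Dio3. Mbnl1 held 219, 103, 168, 116 and 166 CPM in libraries 1 to 5, set against 145 to 152 CPM in the 7-day controls. Libraries 1, 3 and 5 were thus above those controls in Mbnl1 and the others below, and the relation of Mbnl1 to this split was not tested. Thra and Dio2 were lowest in libraries 1 and 5. Thrb and Nr3c2 did not follow this order, with the highest Thrb in library 3 and the lowest Nr3c2 in library 4. With libraries 1 and 5 left out, Thrb and Nr3c2 were still called at 7 days. Dio2 and Esr1 were lowest in libraries 1 and 5, so that fit is no check on their differences. Libraries 1 and 5 also held less of the myofibroblast markers (1186 and 1187 CPM against 2745 to 3512 CPM in the other 3), of the cardiomyocyte markers (29305 and 21775 CPM against 44423 to 46306 CPM) and of the atrial markers (652 and 279 CPM against 2172 to 2583 CPM). Their part in the differences between libraries was not tested.

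Genes that thyroid hormone raises in heart muscle were mostly lower in the libraries labelled KO. Of 16 tested, 12 were called lower and 1 higher at 7 days, with a median log2 fold change of -0.99 against 0.03 for all genes tested. At 14 days 12 were called lower and 2 higher, with a median of -0.69 against 0.01. The 8 cardiomyocyte markers had medians of -1.13 at 7 days and -0.65 at 14 days, with 6 called lower at each time. Myh6 is in both lists, and the part of cell makeup in the lower values was not tested. Shares over all genes were 24.3% lower and 26.4% higher at 7 days, and 22.4% and 21.8% at 14 days. Kcnd2, a channel of the transient outward current, had -2.23 ± 0.35 and -2.15 ± 0.23, and Atp2a2, the calcium pump, -1.92 ± 0.21 and -1.95 ± 0.09. The sodium pump subunit Atp1b1 was called higher (0.34 ± 0.10 and 0.45 ± 0.09), as was the corepressor Hr at 14 days (0.87 ± 0.14). With total count scaling 10 were lower and 3 higher at 7 days, and 9 and 3 at 14 days.

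The 5 genes that the hormone lowers did not move one way. At 7 days 2 were called lower, phospholamban (Pln, -2.31 ± 0.50) and the adenylyl cyclase Adcy6 (-0.80 ± 0.13), and 0 higher. At 14 days 3 were called lower, with Pln at -2.21 ± 0.10 and the sodium-calcium exchanger Slc8a1 at -0.92 ± 0.09, and the slow myosin heavy chain Myh7 was called higher (1.76 ± 0.15). Pln and Atp2a2 were thus both lower, and the part of thyroid hormone or of cell makeup in this was not tested.

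In development, 7 of the 16 hormone-raised genes were called higher and 3 lower from postnatal day 1 to 7, where 12.3% and 11.2% of all genes were. Hcn2, a pacemaker channel, had 2.65 ± 0.16 and Hr 1.86 ± 0.24, while Kcnd3 had -1.14 ± 0.32. From day 7 to 60 14 were called higher and 1 lower, with Kcnd3 at 3.97 ± 0.31, the lipogenic gene Thrsp at 3.71 ± 0.31 and the β1-adrenergic receptor Adrb1 at -0.87 ± 0.16. Total count scaling gave 9 and 2. Shares over all genes in that step, with TMM scaling, were 33.3% higher and 36% lower. Of the 5 hormone-lowered genes, 4 were called lower from day 1 to 7, with Myh7 at -4.48 ± 0.33, and 1 higher (Pln, 0.43 ± 0.10). In Tg 7 of 16 hormone-raised genes were called lower and 1 higher, where 15.8% and 14.9% of all genes were. Kcnd2 was at -1.25 ± 0.17 and Hr at 0.68 ± 0.11. The Tg median was -0.0794 against -0.00159 for all genes tested, and 2 of the 5 hormone-lowered genes were called higher (Myh7 at 0.74 ± 0.15, Pln at 0.37 ± 0.05) and 3 lower.

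**Figure D5:**
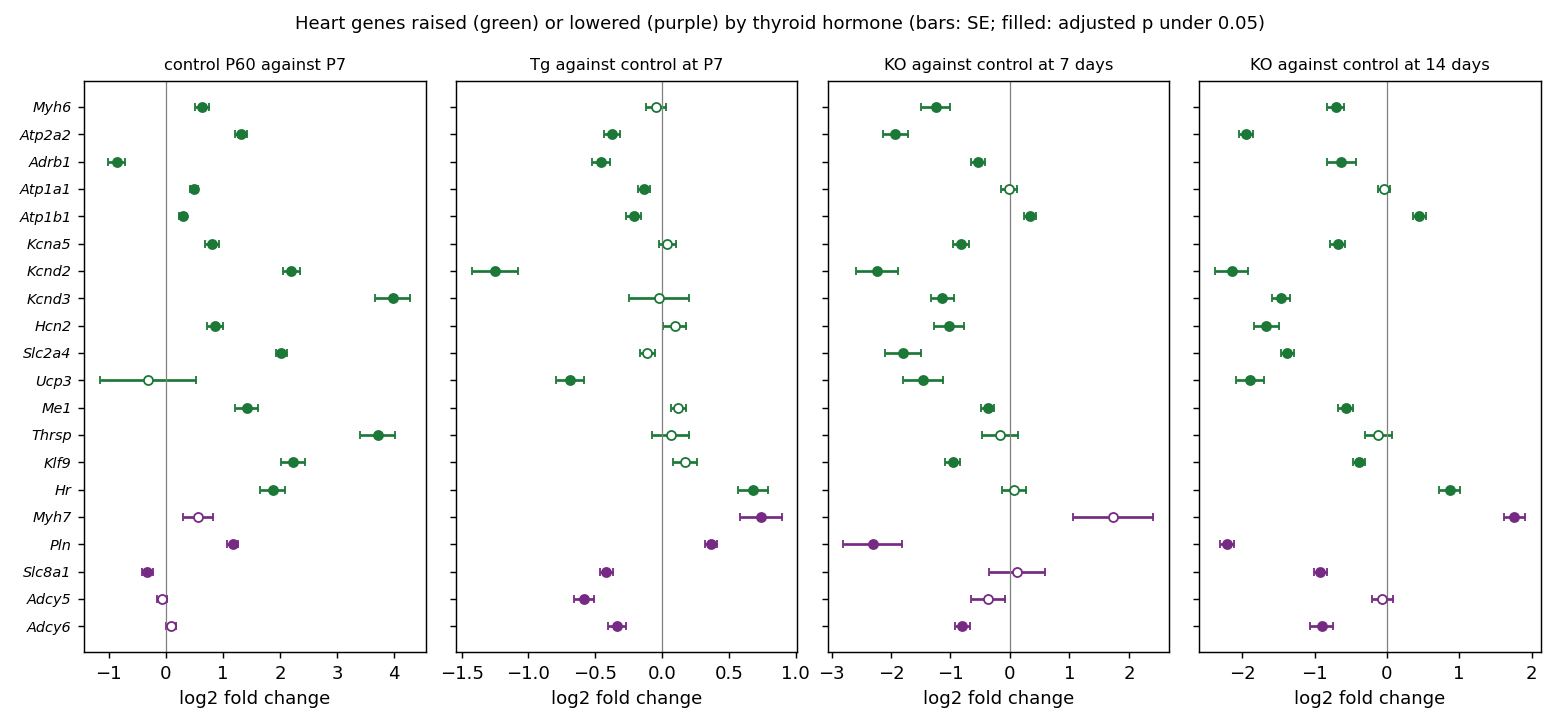
Log2 fold change (horizontal axes, which differ in range) of 15 of the 16 heart genes raised and the 5 lowered by thyroid hormone in 4 comparisons, with bars of 1 SE and filled points at an adjusted p under 0.05 (edgeR). Over all 16, the 1 not drawn included, 14 were called above 0 from postnatal day 7 to 60 with TMM scaling (9 with total count scaling), and 12 below 0 at 7 and at 14 days (10 and 9 with total count scaling).

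Among transporters, receptor partners and coregulators of thyroid hormone, 5 of 18 tested were called higher and 9 lower at 7 days, and 2 and 8 at 14 days. Shares over all genes were 26.4% higher and 24.3% lower at 7 days, and 21.8% and 22.4% at 14 days. With total count scaling these became 7 and 3, and 6 and 4. The coactivator Ppargc1a had -2.72 ± 0.50 and -2.47 ± 0.31, and Rxrg, a retinoid X receptor, -1.91 ± 0.45 and -1.80 ± 0.15. Slc7a5, an amino acid transporter that also carries thyroid hormone, had 1.72 ± 0.38 and 1.15 ± 0.11, and Slc7a8 had 1.26 ± 0.23 at 7 days. In control development Rxrg rose at both steps (3.21 ± 0.13 and 2.15 ± 0.11). From postnatal day 7 to 60 10 of 19 were called higher and 5 lower, where 33.3% and 36% of all genes were. With total count scaling 3 were called higher and 11 lower. In Tg 2 of 20 were called higher and 3 lower, where 14.9% and 15.8% of all genes were.

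Of 17 corticosteroid response genes tested, 3 were called higher and 5 lower in the libraries labelled KO at 7 days, where 26.4% and 24.3% of all genes were. At 14 days 2 were called higher and 4 lower, where 21.8% and 22.4% of all genes were, and total count scaling gave 8 and 3, and 6 and 1. These counts are near the shares of all genes. The transcription factor Zbtb16 had -1.16 ± 0.12 and -1.07 ± 0.13. Lcn2, an iron-carrier binding protein that inflammation also raises, had 2.95 ± 0.80 at 7 days, and Angptl4, a lipoprotein lipase inhibitor, 2.52 ± 0.64. The metallothionein Mt2 had 1.25 ± 0.32 at 14 days. In control development 15 of 17 were called higher and 1 lower from postnatal day 7 to 60 (13 and 2 with total count scaling), with Lcn2 at 4.998 ± 0.52 and Mt2 at 3.52 ± 0.35. Shares over all genes in that step were 33.3% higher and 36% lower. From day 1 to 7, when Nr3c1 rose, 0 were called higher and 6 lower, where 12.3% and 11.2% of all genes were. Lcn2 was at -3.14 ± 0.56 and the clock gene Per1 at -2.42 ± 0.35. In Tg 8 were called higher and 3 lower (8 and 4 with total count scaling), where 14.9% and 15.8% of all genes were. The cell cycle inhibitor Cdkn1a was at 1.48 ± 0.07, Mt2 at 1.41 ± 0.20 and Zbtb16 at -1.61 ± 0.41.

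Among corticosteroid enzymes and receptor chaperones, 2 of 10 tested were called higher and 1 lower at 7 days, and 2 and 3 of 9 at 14 days. Shares over all genes were 26.4% higher and 24.3% lower at 7 days, and 21.8% and 22.4% at 14 days. Fkbp4, a cochaperone of steroid receptors, had -2.04 ± 0.14 and -1.77 ± 0.10, and the chaperone Hsp90aa1 1.38 ± 0.34 and 0.96 ± 0.20. Total count scaling gave 7 and 1, and 4 and 1. Hsd11b1, which regenerates active glucocorticoid, was lower at 14 days (-1.24 ± 0.37) and rose from postnatal day 7 to 60 (6.43 ± 0.66), as did the receptor cochaperone Fkbp5 (3.26 ± 0.31). In Tg 3 of 9 were called higher and 1 lower, where 14.9% and 15.8% of all genes were, with Fkbp5 at -0.45 ± 0.12.

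Of 9 other sex steroid receptors and enzymes tested, 3 were called higher and 3 lower at 7 days and 2 and 2 at 14 days. Shares over all genes were 26.4% higher and 24.3% lower at 7 days, and 21.8% and 22.4% at 14 days. With total count scaling 4 and 0, and 6 and 1, were called. Star, which carries cholesterol into mitochondria for steroid synthesis, had 4.28 ± 0.53 and 3.54 ± 0.16. Gper1, a membrane estrogen receptor, had -0.62 ± 0.16 and -0.68 ± 0.20.

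Genes known to respond to estrogen receptor α in other tissues were read beside Esr1. Of 12 tested, 5 were called higher and 3 lower at 7 days, where 26.4% and 24.3% of all genes were, and 5 and 1 at 14 days, where 21.8% and 22.4% were. Total count scaling gave 8 and 1, and 9 and 0, and under it 83.5% and 81.9% of all calls were higher. Nothing particular to Esr1 is read from these counts. The growth factor Igf1 had 2.36 ± 0.17 and 2.02 ± 0.17, Myc 2.06 ± 0.46 and 1.15 ± 0.18, and the chemokine Cxcl12 -0.60 ± 0.14 and -0.73 ± 0.16. The progesterone receptor Pgr and the trefoil gene Tff1, which mark estrogen action in breast and uterus, were too low to be tested.

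Markers of other cell types moved with the same groups. Fibroblast markers summed to 2790 to 7209 CPM in the libraries labelled KO at 7 days against 1136 to 1383 CPM, with 4 of 7 called higher, and to 3634 to 4215 CPM at 14 days against 1311 to 1427 CPM, with 6 of 7. Macrophage markers summed to 774 to 1145 CPM against 314 to 384 CPM at 7 days and to 487 to 738 CPM against 265 to 402 CPM at 14 days. Cardiomyocyte markers summed to 21775 to 46306 CPM against 68029 to 74166 CPM at 7 days and to 47878 to 56306 CPM against 70965 to 76660 CPM at 14 days, with 6 of 8 called lower at each time. Myofibroblast markers summed to 1186 to 3512 CPM against 72.8 to 105.5 CPM at 7 days and to 1544 to 2339 CPM against 88.3 to 95.1 CPM at 14 days, with 4 and 5 of 5 called higher. Atrial cardiomyocyte markers summed to 279 to 2583 CPM against 91.4 to 235 CPM at 7 days. At 14 days they summed to 3429 to 4303 CPM against 140 to 215 CPM. Of the 4 atrial markers tested at 7 days, 1 was called higher and 1 lower, with a median log2 fold change of -0.70. At 14 days 2 of 4 were called higher and 0 lower, with a median of 0.62. Endothelial, smooth muscle and erythroid sums at 7 days were below those of every control, and 4 of 6, 4 of 7 and 5 of 5 of their markers were called lower. Of the 7 smooth muscle and pericyte markers, 2 were called higher. In these bulk samples fewer cells of a type and less RNA per cell cannot be told apart. The part of cell makeup in the differences of receptors and hormone-responsive genes was not tested. In Tg macrophage markers summed to 126 to 157 CPM against 78.1 to 94.6 CPM, with 6 of 7 called higher. Fibroblast sums in Tg were 5572 to 6559 CPM against 4401 to 5184 CPM, with 5 of 7 called higher, and those of smooth muscle and pericytes 1091 to 1116 CPM against 916 to 982 CPM, with 3 of 7. T and B cell sums were 2.89 to 3.47 CPM against 1.81 to 2.09 CPM.

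The markers moved with age as well. From postnatal day 7 to 60 the control sums for cardiomyocytes went from 46897 to 48492 CPM up to 68029 to 76660 CPM, with 8 of 8 called higher. Those for fibroblasts went from 4401 to 5184 CPM down to 1136 to 1427 CPM, with 5 of 7 called lower and 1 higher. At postnatal day 1 the cardiomyocyte and fibroblast sums were 37622 to 45527 CPM and 1878 to 2939 CPM. The part of these shifts in the age changes of receptors and hormone-responsive genes was not tested.

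The genes with the most similar pattern to each member over the 27 libraries are given as a description, by Pearson's r of log2(CPM + 0.5). All points share library, age and cell makeup. For Thrb they were Mtm1 (r = 0.979), Me3 and Arhgap20, and for Nr3c2 Myl3 (r = 0.940), Ndufb2 and Atp5h, of which Myl3 is a ventricular myosin light chain and the others mitochondrial. For Thra they were Zfp664 (r = 0.974), Ccl27a and Lrrc1, and for Nr3c1 Rflnb (r = 0.868), Dpt and Pdcd7. For Dio2 they were Golim4 (r = 0.953), Lhfp and Cnpy2, and for Dio3 Spp1 (r = 0.963), Slc39a1 and Capg, of which Spp1 encodes osteopontin and Capg an actin-capping protein. For Esr1 they were Frzb (r = 0.988), Kcnj14 and Gpx3. Over the 9 libraries labelled KO alone Esr1 was most like Fibin (r = 0.996), Art4 and Il17rd and ran most opposite to Actb (r = -0.997), Sbno2 and Myd88.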

How the data were processed

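The authors deposited raw counts, 1 whole number for each gene in each library. Per the submitters' processing notes STAR, featureCounts, DESeq2 and Salmon were used with build GRCm38 (mm10), in roles and versions not stated, and the annotation release and strand setting are not given in the sources used here. Symbols, coordinates and exon lengths came from GENCODE M21 on GRCm38, which matched 55227 of 55487 identifiers. Counts were tested with edgeR 4.0.16 in R 4.3.3 (filterByExpr, TMM, glmQLFit and glmQLFTest, Benjamini-Hochberg), tried first on simulated data. KO and Tg fits held only the groups compared, the time comparison held the 16 libraries of postnatal day 60, and ages were compared in the 14 control libraries with both day 60 groups averaged. The SE was taken as the size of the log2 fold change divided by the root of F. Alternatives were total count scaling, DESeq2 size factors, no filter, DESeq2 1.42.0, limma-voom (limma 3.58.1), a replicate block, a sex covariate, all 27 libraries and leaving out each library.

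The members and lists were chosen with earlier results of these data known. List examples are the called genes with the largest change, up to 2 higher and 2 lower, with a mean of at least 1 CPM. Pgr and Tff1 were named for their role after their values were seen. Of 20 sex steroid genes, 18 matched. Within groups, the chi-square statistic per degree of freedom between libraries was 6.34 to 147 over 40 pairs, so each library counted as 1 sample. Some genes of the lists are counted but not reported here by name.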

Additional observations from a re-analysis of the deposited data

Results flagged for a closer look

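Of 40 groups of 4 or 5 libraries checked for 1 value far from the rest, 4 held one. Chance flags about 1 in 20, but that rate need not hold where most counts are at or near 0, as in the Dio3 and Esr2 groups below. Thrb in library 3 labelled KO at 7 days was 13.2 CPM against 8.60 to 9.93 CPM in the other 4 and stayed below every control. Dio3 in control library 4 of postnatal day 1 was 0.361 CPM (11 counts) against 0 in the others. Esr2 was 0.178 CPM (3 counts) in 7-day control library 4, and 0.338 CPM (8 counts) in library 9 labelled KO at 14 days, against at most 0.0441 CPM in the other 3.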

How the results depend on the processing

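Of the recalculated member differences, 719 kept their direction and side of the threshold, 19 lost and 9 gained a call and 17 changed sign. With total count scaling Thra at 7 and 14 days in the libraries labelled KO became 0.0265 and 0.25, Nr3c1 0.33 and 0.28, and the Nr3c1 time difference -0.0496. That scaling made 83.5% of calls at 7 days higher (52.0% with TMM), 81.9% at 14 days (49.4%), 41.0% from postnatal day 1 to 7 (52.4%) and 18.0% from day 7 to 60 (48.1%). Correlations of same-numbered libraries ran from -0.384 to 0.176 and were not all above 0.1. The labels do not say whether the numbers pair samples, and these correlations cannot decide it. With replicate number as a block, Nr3c1 at 14 days was 0.0236, Thra at 14 days was called (-0.43, adjusted p = 0.0153), the Thra time difference was -0.11, and 2 members were called in Tg, where Nr3c1 (adjusted p = 0.0795) and Nr3c2 (adjusted p = 0.0525) were not, nor was Nr3c2 from postnatal day 1 to 7 (0.52, adjusted p = 0.0894). Members called in Tg numbered 0 with all 27 libraries in a single fit and 2 (without control library 3) to 4 leaving out 1 library. Members called for the time difference numbered 1 with DESeq2. Leaving out 1 library, Nr3c1 between times ran from -0.0220 to 0.0654, and from postnatal day 1 to 7 Dio2 ran from -0.30 to 0.18 and Esr1 from -0.25 to 0.39, which was -0.0933 without day 1 libraries 3 and 4. The Dio3 and Esr2 values outside the libraries labelled KO are limited by counts at or near the floor. Leaving out KO libraries 1 and 5 together, or day 1 libraries 3 and 4 together, was chosen after seeing the data.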
